A study of Mus musculus with 6 samples.

Results

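The genes described here encode the pyruvate dehydrogenase complex, the enzymes of the tricarboxylic acid cycle and the reactions that feed or drain it. They are 32 named genes, taken by symbol from a table of 43629 named gene models, and all 32 passed the filter on low counts that left 14413 genes for testing. RNA of whole heart tissue was sequenced from 3 young and 3 old animals, all male C57BL/6 mice on normal chow, aged 2 months and 22 months. The comparison asks which transcripts differ with age. No treatment or genetic change is named for either age, and the labels' extraction text refers to a sample type abbreviated NRVMs although the samples are labelled as heart tissue.

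The tricarboxylic acid cycle oxidises acetyl-CoA in the mitochondrial matrix and passes the electrons to the respiratory chain. The pyruvate dehydrogenase complex makes acetyl-CoA from pyruvate, while fatty acid oxidation, the main fuel route of the adult heart, supplies it without that complex. Anaplerosis is the refilling of cycle intermediates, by carboxylation of pyruvate, by entry of glutamate or from propionate, and it balances the intermediates that leave for synthesis. Heart muscle is among the tissues richest in these enzymes.

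The libraries held 13673856 to 15583364 counted reads. Mitochondrially encoded transcripts took 25.1% to 26.8% of the counts on named genes in young hearts and 18.4% to 27.6% in old hearts. Values per heart are CPM, counts relative to a common library size after trimmed-mean (TMM) scaling, and group values are means ± SD with n = 3 hearts. Fold changes are log2 of old over young ± an approximate SE, and adjusted p values come from edgeR's quasi-likelihood test with Benjamini-Hochberg adjustment over all genes tested. A gene is said to fall or rise where that adjusted p is under 0.05.

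Most transcripts of the dehydrogenase complex and of the cycle fell in old hearts. None of the 7 genes listed here under anaplerosis and export passed the test. Among further genes described below, 1 of 6 on the propionate route fell (Mut). Of 7 genes of glutamine, glutamate and GABA, 2 fell (Gpt2 and Glul). Of the 32 genes 19 fell and 0 rose by edgeR. Among all genes tested 6.36% fell and 8.72% rose. The median log2 fold change was −0.58 over the 32 genes and 0.02 over all genes tested. The 19 that fell were 16 of the 20 genes of the pyruvate dehydrogenase complex and the cycle and 3 of the 12 genes of the side and feeding reactions. At an unadjusted p under 0.05, 21 of the 32 were lower and 1 was higher, beside 2110 lower and 2570 higher of all 14413 genes tested. DESeq2 called 21 lower and 0 higher, where 7.25% of all genes were lower and 9.61% higher. Limma-voom called 19 lower and 0 higher, where 6.38% of all genes were lower and 7.6% higher. All 3 old hearts lay below all 3 young hearts in 24 of the 32 genes, against 18.4% of all genes tested, and above them in 1, against 18.8%.

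**Figure D1:**
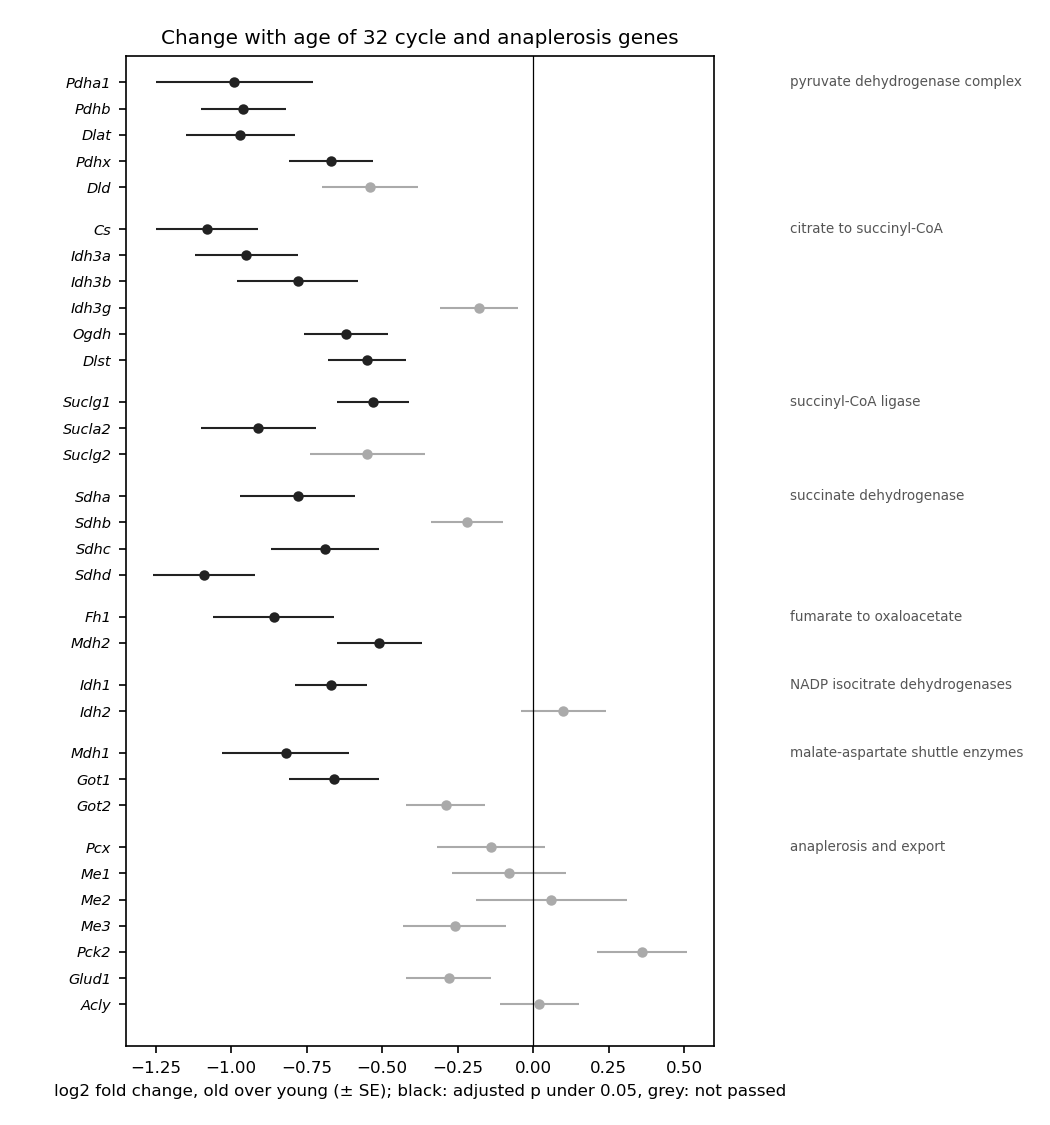
Log2 fold change of old over young (horizontal axis, ± SE) for each of the 32 genes, grouped by enzyme. Black points passed an adjusted p of 0.05 and grey points did not. The values run from −1.09 for Sdhd to 0.36 for Pck2, and the 7 anaplerosis and export genes are all grey.

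The count of falling genes depended on which hearts were included. Leaving out old 1 gave 23 falling genes, with 17.7% of all genes tested then lower. Leaving out old 2 gave 12 and old 3 gave 6, where 4.08% and 2.18% of all genes were lower. When young 1, 2 or 3 was left out the count was 3, 6 and 5, with 1.24%, 1.28% and 1.53% of all genes lower. Cs, Pdhb and Sdhd kept an adjusted p under 0.05 in each of these 6 settings by edgeR, and in the other settings tried by the tool each of them used. The direction of the 19 falling genes was the same in each setting. With library totals in place of TMM factors 14 of the 32 fell; that scaling gave 624 lower and 1400 higher genes in all, against 917 and 1257 with TMM.

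The hearts of the old group were ordered alike in most of these genes. The median of the 32 genes, relative to the young mean, was −0.37 log2 units in old 1, −0.57 in old 2 and −0.81 in old 3, and 0.09, −0.06 and −0.03 in young 1, 2 and 3. Old 1 was the highest old heart in 26 of the 32 genes, and old 3 the lowest in 27. Among all genes tested old 1 was the highest old heart in 40.4% and old 3 the lowest in 28.6%, and among all genes that fell these shares were 59.2% and 45.4%. Of the 19 falling genes described here, old 1 was the highest old heart in 17 and old 3 the lowest in 17. For the 19 genes that fell, old 1 lay nearer to the young mean in 4 (Pdha1, Idh3b, Sdha and Mdh1) and nearer to the other old hearts in 15. Young hearts had a median SD of log2 CPM of 0.10 over the 32 genes and 0.14 over all genes tested, and old hearts 0.27 over both.

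**Figure D2:**
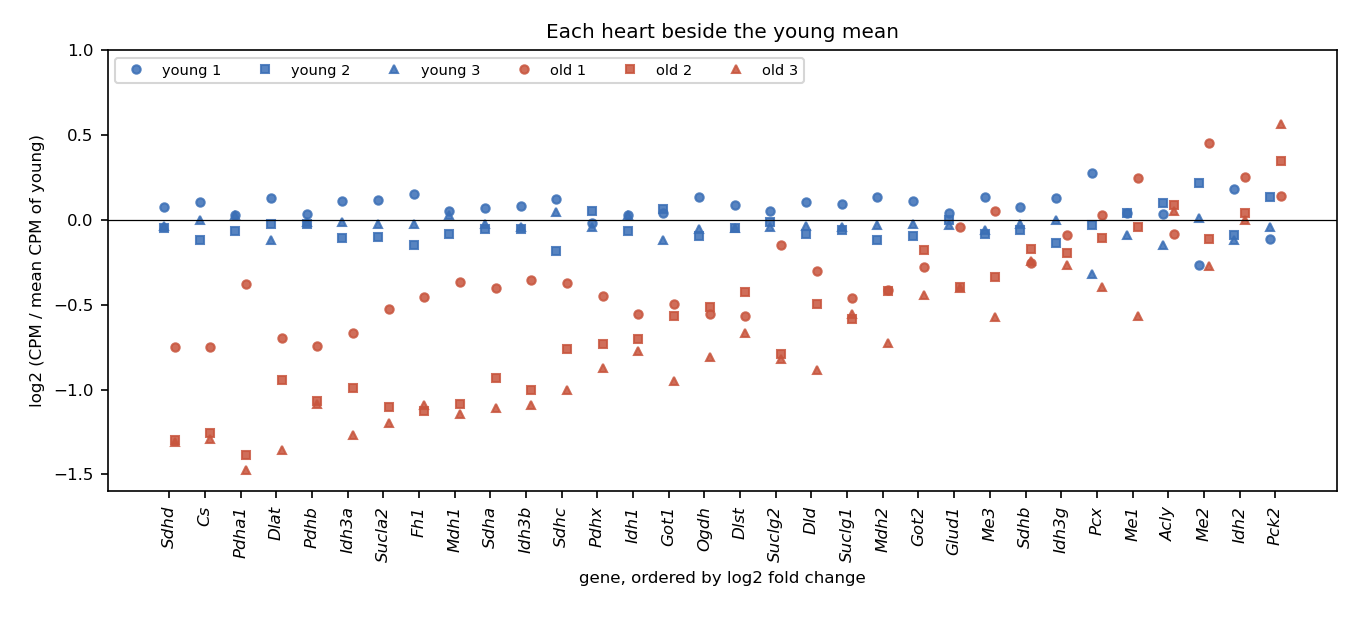
Log2 of each heart's CPM over the mean of the young hearts (vertical axis) for the 32 genes, ordered by fold change (horizontal axis). Circles, squares and triangles are replicates 1, 2 and 3, blue young and red old. Old 1 is the uppermost red point in 26 genes and old 3 the lowest in 27.

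The pyruvate dehydrogenase complex decarboxylates pyruvate in its E1 part, transfers the acetyl group in E2 and reoxidises the lipoyl arm in E3. Of its 5 genes 4 fell; their median change was −0.96 log2 units, and in all 5 the old hearts lay below the young ones. Pdhb, the E1 beta subunit (ENSMUSG00000021748, chromosome 14, 8165996 to 8173025, GRCm38), had 587, 563 and 568 CPM in the young hearts and 342, 273 and 270 CPM in the old ones. These old values lay at 59.7%, 47.7% and 47.1% of the young mean. Its log2 fold change was −0.96 ± 0.14 (edgeR adjusted p = 0.00384).

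Pdha1, the E1 alpha subunit that the regulatory kinases phosphorylate, had 283, 265 and 283 CPM in young and 213, 106 and 99.9 CPM in old hearts. Old 1 stood apart from the other old hearts here, and the log2 fold change of −0.99 ± 0.26 (edgeR adjusted p = 0.0351) became −1.43 without it. Dlat, the E2 acetyltransferase, had 285, 257 and 241 CPM in young and 161, 136 and 102 CPM in old hearts (−0.97 ± 0.18, edgeR adjusted p = 0.00883). Pdhx, which anchors E3 to the E2 core, fell by 0.67 ± 0.14 on the log2 scale, from 87.2 ± 2.89 to 54.7 ± 8.44 CPM. Dld, the E3 dehydrogenase that this complex shares with other 2-oxoacid dehydrogenases, had 281 ± 19.7 and 193 ± 38.2 CPM, and its old hearts were all below the young ones. Its change of −0.54 ± 0.16 did not pass (edgeR adjusted p = 0.0547) and did so in 7 of 21 alternative settings. The calls ended for Pdha1 without young 1, 2 or 3 or old 2 or 3 and with library totals, for Pdhx without young 1, 2 or 3 or old 3, and for Dlat without young 1 (edgeR adjusted p at most 0.119).

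In the stretch from citrate to succinyl-CoA 5 of 6 genes fell, with a median of −0.70. Cs, citrate synthase, which condenses acetyl-CoA with oxaloacetate (ENSMUSG00000005683, chromosome 10, 128337734 to 128362479), had 926, 793 and 861 CPM in young hearts. It had 512, 360 and 352 CPM in old hearts, a mean of 47.4% of the young level. The groups were far apart, with a log2 fold change of −1.08 ± 0.17 (edgeR adjusted p = 0.00569). The related gene Csl had 4 counts over all libraries against 56705 for Cs.

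Ogdh and Dlst encode the E1 and E2 parts of the 2-oxoglutarate dehydrogenase complex. Ogdh had 1238, 1055 and 1087 CPM in young and 768, 789 and 645 CPM in old hearts (−0.62 ± 0.14, edgeR adjusted p = 0.0206). Dlst went from 400 ± 22.6 to 273 ± 23 CPM (−0.55 ± 0.13). In both genes old 2, not old 1, was the highest old heart. The related gene Ogdhl had 14355 counts over all libraries, and how reads common to both were counted is not stated. The calls of Ogdh and Dlst ended without young 1, 2 or 3 or old 3, and that of Dlst also with the replicate number as a block (edgeR adjusted p = 0.05).

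NAD-dependent isocitrate dehydrogenase is a heteromer of a catalytic alpha subunit with beta and gamma subunits. Of its 3 genes Idh3a and Idh3b fell and Idh3g did not pass. Idh3a, the alpha subunit, had 450, 388 and 413 CPM in young and 263, 210 and 173 CPM in old hearts (−0.95 ± 0.17, edgeR adjusted p = 0.00829). Idh3b had 713, 648 and 654 CPM in young and 525, 336 and 315 CPM in old hearts (−0.78 ± 0.20, edgeR adjusted p = 0.0295). Idh3g had 463, 386 and 424 CPM in young and 399, 371 and 353 CPM in old hearts, and here the ages overlapped (−0.18 ± 0.13, edgeR adjusted p = 0.368). The ratio of Idh3g to Idh3a counts was 1.03, 0.995 and 1.03 in young hearts and 1.52, 1.77 and 2.04 in old hearts. This ratio, that of Idh3g to Idh3b (young 0.649, 0.596 and 0.648, old 0.760, 1.10 and 1.12) and the ratios to Sdhd and Sucla2 given below for Sdhb and Suclg1 were chosen after their values were seen and were not tested. The call of Idh3a ended without young 1 (edgeR adjusted p = 0.0506). That of Idh3b ended with library totals and without young 1, 2 or 3 or old 2 or 3; without old 1 its log2 fold change was −1.05.

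Succinyl-CoA ligase pairs the alpha subunit Suclg1 with either an ADP-specific beta subunit, Sucla2, or a GDP-specific one, Suclg2. Sucla2 had 490, 421 and 443 CPM in young and 314, 210 and 197 CPM in old hearts (−0.91 ± 0.19, edgeR adjusted p = 0.0145). Suclg1 went from 456 ± 27.5 to 315 ± 14.2 CPM (−0.53 ± 0.12, edgeR adjusted p = 0.0228). Suclg2 had 113, 108 and 106 CPM in young and 98.4, 63 and 61.8 CPM in old hearts, with old 1 close to the young values; it did not pass (−0.55 ± 0.19, edgeR adjusted p = 0.0734). The ratio of Sucla2 to Suclg2 counts was 4.33, 3.90 and 4.18 in young and 3.20, 3.34 and 3.18 in old hearts. That ratio differed by −0.35 log2 units between the ages without overlap (two-sided exact permutation p = 0.1, which is the lowest value 3 hearts per age can give). Suclg1 counts over those of Sucla2 were 0.994, 1.04 and 0.999 in young and 1.05, 1.45 and 1.57 in old hearts. The calls of Sucla2 and Suclg1 ended without young 1, 2 or 3 or old 3, and that of Suclg1 with the block as well (edgeR adjusted p = 0.0503).

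Succinate dehydrogenase is both a cycle enzyme and complex II of the respiratory chain, with the flavoprotein Sdha, the iron-sulfur protein Sdhb and the membrane anchors Sdhc and Sdhd. Of these genes 3 of 4 fell. Sdhd (ENSMUSG00000000171, chromosome 9, 50596357 to 50603812) had 324, 297 and 299 CPM in young and 183, 125 and 124 CPM in old hearts (−1.09 ± 0.17, edgeR adjusted p = 0.00555). Sdha had 892, 819 and 835 CPM in young and 644, 445 and 393 CPM in old hearts (−0.78 ± 0.19, edgeR adjusted p = 0.0244). Sdhc had 322, 261 and 306 CPM in young and 229, 175 and 148 CPM in old hearts (−0.69 ± 0.18, edgeR adjusted p = 0.0315).

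Sdhb (ENSMUSG00000009863, chromosome 4, 140961203 to 140979193) had the smallest difference of the complex II genes. It had 1008, 914 and 940 CPM in young and 800, 846 and 807 CPM in old hearts, without overlap, and did not pass (−0.22 ± 0.12, edgeR adjusted p = 0.241). The ratio of Sdhb to Sdhd counts was 3.11, 3.07 and 3.14 in young hearts and 4.36, 6.78 and 6.49 in old hearts. Between Sdha and Sdhd, which both fell, the ratio was 2.75, 2.75 and 2.79 in young and 3.51, 3.56 and 3.16 in old hearts (0.30 log2 units, two-sided exact permutation p = 0.1, the lowest possible). Sdha and Sdhc lost their calls without young 1, 2 or 3 or old 2 or 3, and Sdhc with library totals too (edgeR adjusted p at most 0.129).

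**Figure D3:**
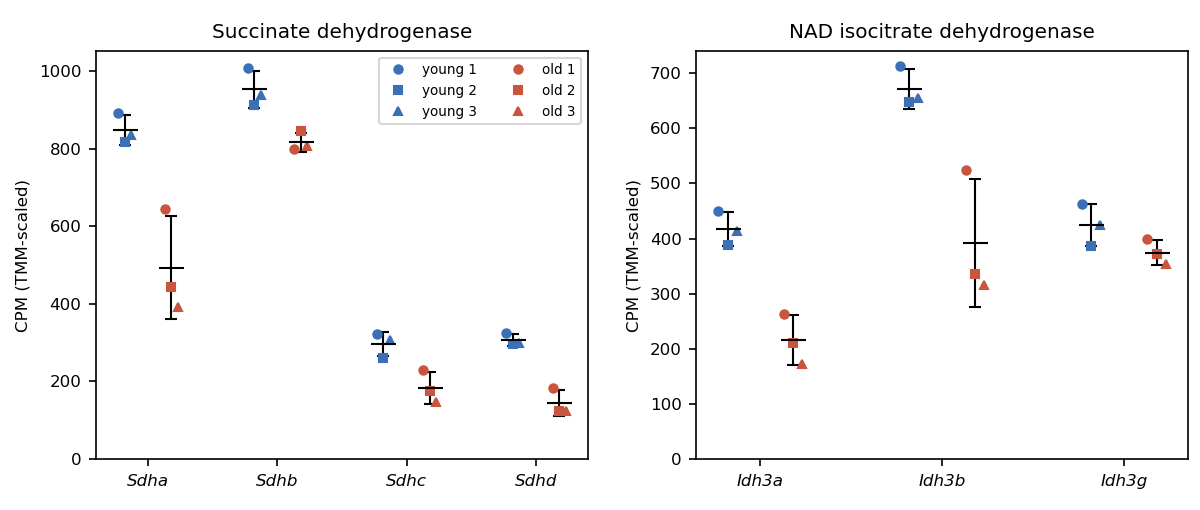
CPM of each heart (vertical axis, from 0) for the subunit genes of succinate dehydrogenase and NAD-dependent isocitrate dehydrogenase. Points are hearts, blue young and red old, and black bars are the mean ± SD of 3 hearts. Sdhb (954 ± 48.4 and 818 ± 24.8 CPM) and Idh3g (424 ± 38.4 and 374 ± 23.1 CPM) lie closer to the young level than their partners do.

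The sequences before the start sites of these subunit genes are shown because some genes of 1 complex passed the test and others did not; whether their changes differ was tested for Sdha against Sdhd alone. RefSeq windows on GRCm38.p6, from 250 bases before to 50 after the annotated start, were at hand for 29 of the 32 genes (not for Idh3a, Me2 and Sdhc), 37 windows in all. Capitals mark letters of the motifs searched on both strands: TNAAGGTCA, bound by oestrogen-related receptors, the palindromic element of the nuclear respiratory factor NRF1, CCGGAAGT, an ETS core bound by GABP, the CCAAT box, the E-box CACGTG, the cyclic AMP response element TGACGTCA and TGATGCAA, a composite element bound by ATF4. No matches overlap in the windows shown. Sdha lies at chr13:74350191-74350490 and Sdhd at chr9:50603800-50604099, both on the minus strand, and Sdhb at chr4:140961021-140961320 on the plus strand. Idh3b lies at chr2:130284402-130284701 and Idh3g at chrX:73786848-73787147, both on the minus strand.
Sdha: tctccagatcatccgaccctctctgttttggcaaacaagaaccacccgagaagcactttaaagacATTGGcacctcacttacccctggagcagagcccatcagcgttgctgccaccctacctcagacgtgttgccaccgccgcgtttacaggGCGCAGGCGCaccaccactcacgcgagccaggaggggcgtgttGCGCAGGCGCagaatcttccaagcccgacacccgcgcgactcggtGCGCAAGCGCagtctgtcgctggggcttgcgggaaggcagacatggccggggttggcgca
Sdhd: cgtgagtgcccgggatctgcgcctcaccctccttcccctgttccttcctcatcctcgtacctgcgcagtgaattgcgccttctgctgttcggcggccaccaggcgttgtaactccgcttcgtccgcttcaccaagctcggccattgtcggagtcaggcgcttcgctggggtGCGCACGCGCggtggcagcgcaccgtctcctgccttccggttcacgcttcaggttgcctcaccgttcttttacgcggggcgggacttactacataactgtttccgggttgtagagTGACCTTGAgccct
Sdhb: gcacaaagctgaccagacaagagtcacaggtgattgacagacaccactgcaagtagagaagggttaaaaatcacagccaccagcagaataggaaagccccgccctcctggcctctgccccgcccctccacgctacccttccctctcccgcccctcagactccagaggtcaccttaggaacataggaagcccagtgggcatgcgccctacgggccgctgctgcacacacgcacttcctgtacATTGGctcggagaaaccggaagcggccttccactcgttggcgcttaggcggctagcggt
Idh3b: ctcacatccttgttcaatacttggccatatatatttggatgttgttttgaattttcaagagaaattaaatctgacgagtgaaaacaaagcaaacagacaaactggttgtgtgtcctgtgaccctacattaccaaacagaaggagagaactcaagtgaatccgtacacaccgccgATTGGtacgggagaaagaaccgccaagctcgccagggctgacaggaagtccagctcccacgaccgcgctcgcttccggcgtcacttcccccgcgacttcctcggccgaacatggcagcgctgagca
Idh3g: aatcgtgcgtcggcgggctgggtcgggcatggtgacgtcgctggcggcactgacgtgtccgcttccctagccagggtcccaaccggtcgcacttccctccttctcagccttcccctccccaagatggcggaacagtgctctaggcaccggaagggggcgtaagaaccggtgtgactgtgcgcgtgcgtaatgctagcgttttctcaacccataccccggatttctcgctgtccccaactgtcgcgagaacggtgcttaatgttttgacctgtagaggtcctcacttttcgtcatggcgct

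The window of Sdha held 3 matches to the NRF1 motif and a CCAAT box, and that of Sdhd held 1, beside 1 match to the oestrogen-related receptor motif. The windows of Sdhb and Idh3b held a CCAAT box each, and that of Idh3g none of the letters searched. The NRF1 motif was found in 4 of the 29 genes (13.8%; Dld, Sdha, Sdhd and Sucla2) and in 5.19% of all 27025 genes with windows. The CCAAT box was found in 18 of the 29 (62.1%) against 41.1% of all genes, and 10 of these 18 fell, beside 17 of the 29. The oestrogen-related receptor motif was found in Sdhd, 3.45% of the 29, against 1.43% of all genes, and the ETS core in Dlst against 4.31%. The cyclic AMP response element was in Mdh2 and Ogdh (6.90% against 2.03%), the E-box in Ogdh and Pcx (6.90% against 8.09%) and the ATF4 element in Got1 (3.45% against 1.03%). These matches describe letters in a short window and show no binding.

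Fumarase and malate dehydrogenase close the cycle, and both genes fell. Fh1, fumarase, had 459, 373 and 407 CPM in young and 301, 189 and 194 CPM in old hearts (−0.86 ± 0.20, edgeR adjusted p = 0.0206). Mdh2, the mitochondrial malate dehydrogenase, had 1301, 1093 and 1161 CPM in young and 892, 888 and 716 CPM in old hearts (−0.51 ± 0.14, edgeR adjusted p = 0.0433). Both calls ended without young 1, 2 or 3 or old 2 or 3. That of Mdh2 ended also with library totals, on the FPKM scale and with the block (edgeR adjusted p = 0.0691 with the block).

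NADP-dependent isocitrate dehydrogenases make NADPH, Idh2 in mitochondria and Idh1 in the cytosol and peroxisomes. Idh2 (ENSMUSG00000030541, chromosome 7, 80094846 to 80115392) had 2246, 1863 and 1826 CPM in young and 2359, 2037 and 1976 CPM in old hearts, and the ages overlapped (0.10 ± 0.14, edgeR adjusted p = 0.657). Over the alternative settings its log2 fold change lay between 0.02 and 0.20. Idh1 had 57.9, 54.4 and 57.9 CPM in young and 38.7, 34.9 and 33.3 CPM in old hearts, with old 1 close to the other old hearts (−0.67 ± 0.12, edgeR adjusted p = 0.00858; the call ended without young 1 or young 3).

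The proportions of the isocitrate dehydrogenases were compared as ratios of counts within each heart. Idh2 counts were 5.00, 4.80 and 4.43 times those of Idh3a in young and 8.98, 9.71 and 11.4 times in old hearts. This is a difference of 1.08 log2 units without overlap (two-sided exact permutation p = 0.1, the lowest possible). The ratio of Idh1 to Idh2 differed by −0.78 log2 units, again without overlap and with the same p. Of all counts on the 32 genes Idh2 took 12.0% to 13.3% in young and 18.8% to 20.7% in old hearts.

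The malate-aspartate shuttle carries cytosolic reducing equivalents into mitochondria with a malate dehydrogenase and an aspartate aminotransferase on each side of the inner membrane. The cytosolic enzymes fell. Mdh1 had 1531, 1393 and 1508 CPM in young and 1146, 696 and 668 CPM in old hearts (−0.82 ± 0.21, edgeR adjusted p = 0.0295), with old 1 nearer to the young hearts. Got1 had 670, 681 and 600 CPM in young and 461, 439 and 337 CPM in old hearts (−0.66 ± 0.15, edgeR adjusted p = 0.0223). Got2, the mitochondrial aminotransferase, had 806, 698 and 734 CPM in young and 616, 661 and 548 CPM in old hearts and did not pass (−0.29 ± 0.13, edgeR adjusted p = 0.164).

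Got1 over Got2 counts were 0.831, 0.975 and 0.817 in young and 0.747, 0.664 and 0.615 in old hearts, a difference of −0.37 log2 units (two-sided exact permutation p = 0.1, the lowest possible). Mdh1 over Mdh2 counts overlapped between the ages because of old 1 (young 1.18, 1.28 and 1.30, old 1.29, 0.784 and 0.933; exact permutation p = 0.3). Pdha1 over Pdhb counts overlapped too (young 0.482, 0.471 and 0.498, old 0.621, 0.388 and 0.370; exact permutation p = 0.8), as did Me1 over Me3 (exact permutation p = 0.2). In all 8 ratios were compared in this way, and adjustment over them cannot bring any p under 0.1. The calls of Mdh1 ended with library totals and without young 1, 2 or 3 or old 2 or 3, and those of Got1 without young 1, 2 or 3 or old 3.

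**Figure D4:**
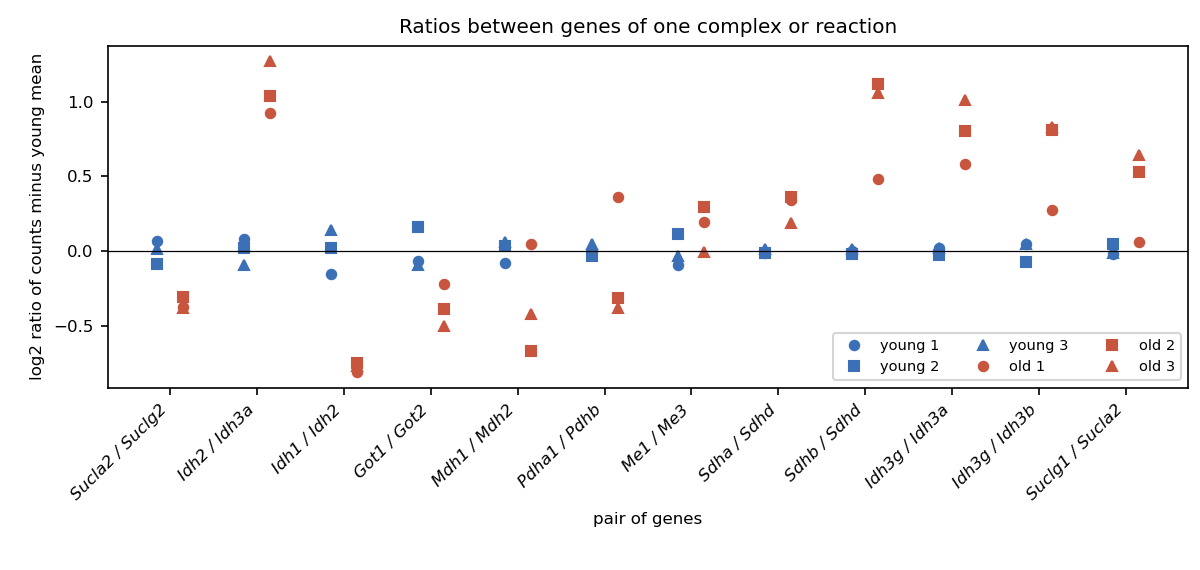
Log2 ratio of the counts of 2 genes in each heart minus the mean of the young hearts (vertical axis), for 12 pairs. Blue points are young and red points old hearts, with shapes for replicates 1 to 3. The red points of Idh2 over Idh3a lie highest among the 8 tested pairs (1.08 log2 units on average), and those of Mdh1 over Mdh2, Pdha1 over Pdhb and Me1 over Me3 overlap the blue ones.

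None of the 7 genes of anaplerosis and export passed edgeR's test, and their median log2 fold change was −0.08. At an unadjusted p under 0.05 there were 0 lower and 1 higher, beside 2110 lower and 2570 higher of all 14413 genes tested. DESeq2 and limma-voom called 0. Limma-voom with sample quality weights called 2 lower (Me3 and Glud1) and 1 higher (Pck2), where 14.1% of all genes were lower and 17.5% higher. Pck2, the mitochondrial phosphoenolpyruvate carboxykinase (ENSMUSG00000040618, chromosome 14, 55540266 to 55551242), had 21.2, 25.2 and 22.3 CPM in young and 25.3, 29.2 and 33.9 CPM in old hearts. Its old hearts were all above the young ones, by a narrow margin in old 1 (0.36 ± 0.15, edgeR adjusted p = 0.127). It passed without old 1 (0.46), as Me3 and Glud1 did as lower genes, where 17.7% of all genes were lower and 20.1% higher. Pcx, pyruvate carboxylase, had 34.5, 27.9 and 22.9 CPM in young and 29.1, 26.5 and 21.7 CPM in old hearts (−0.14 ± 0.18, edgeR adjusted p = 0.623). Pcx overlaps Lrfn4 on the other strand, which had 1227 counts over all libraries against 2412 for Pcx, and the strand setting of the counting is not given in the sources used here.

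Glud1, glutamate dehydrogenase, which makes 2-oxoglutarate from glutamate, had 110, 107 and 105 CPM in young hearts. In old hearts it had 104, 81.4 and 80.9 CPM, without overlap but with old 1 near the young values (−0.28 ± 0.14, edgeR adjusted p = 0.200). The malic enzymes convert malate to pyruvate, Me1 in the cytosol and Me2 and Me3 in mitochondria. Me1 had 74, 73.9 and 67.6 CPM in young and 85.1, 69.7 and 48.5 CPM in old hearts (−0.08 ± 0.19), the old hearts lying on both sides of the young ones. Me3 had 69 ± 5.85 and 57.6 ± 12.9 CPM (−0.26 ± 0.17) and Me2 5.37 ± 0.887 and 5.59 ± 1.55 CPM (0.06 ± 0.25). Acly, ATP citrate lyase, which splits exported citrate in the cytosol, had 47.1, 49.2 and 41.5 CPM in young and 43.4, 48.8 and 47.7 CPM in old hearts (0.02 ± 0.13). The edgeR adjusted p of these 4 genes lay at 0.793 for Me1, 0.315 for Me3, 0.887 for Me2 and 0.925 for Acly.

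Levels of different genes were compared per length, with the deposited FPKM values, which divide a gene's fragments by its length and the library's depth. Idh2 stood highest of the 32 genes in young hearts at 734 ± 88.7 FPKM, before Mdh1 (552 ± 26.7 FPKM), Mdh2 (544 ± 49.8 FPKM) and Sdhb (409 ± 21.6 FPKM). Mdh1 and Mdh2 did not differ beyond their spread. In old hearts Idh2 had 784 ± 70 FPKM, followed by Mdh2 (381 ± 45.6 FPKM), Sdhb (349 ± 13.5 FPKM) and Mdh1 (311 ± 96.9 FPKM). Cs stood at 292 ± 22.8 and 138 ± 29.3 FPKM, and Pdhb at 370 ± 9.1 and 190 ± 24.6 FPKM. The anaplerotic and exporting genes were the lowest in young hearts apart from Glud1 (25.2 ± 0.73 FPKM): Me1 17.9 ± 1.01, Acly 8.35 ± 0.766, Pck2 6.46 ± 0.585, Pcx 6.39 ± 1.33, Me3 4.53 ± 0.396 and Me2 2.1 ± 0.347 FPKM. Within the dehydrogenase complex the young level per length was 71.2 ± 2.46 FPKM for Pdha1, 51.3 ± 4.64 FPKM for Dlat and 21.3 ± 0.79 FPKM for Pdhx.

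As a share of all counts on named genes the 32 genes took 1.63%, 1.46% and 1.54% in young hearts and 1.32%, 1.09% and 0.918% in old hearts. With mitochondrially encoded transcripts left out of the total, these shares were 1.99% to 2.18% in young and 1.27% to 1.67% in old hearts. The ages did not overlap on either base.

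Transcripts of the 32 genes were also described by length and base composition. Over the 32 genes the log2 fold change had a Pearson r of 0.39 and a Spearman rho of 0.38 with the GC content of the longest coding transcript, and 0.23 and 0.20 with its length. Over 12969 protein-coding genes tested these were 0.04 and 0.07 for GC and −0.09 and −0.07 for length; genes of 1 library set are not independent. Of the 5 genes richest in GC, Pcx (57.7%), Idh2 (55.4%), Sdhb (54.9%) and Got2 (54.5%) did not pass and Mdh2 (55.4%) fell. At the lower end Sucla2 (43.2%) and Idh1 (43.8%) fell, and Dld (40.6%) and Suclg2 (44.4%) did not pass. When the trend of each library with GC and length was removed, a setting added after seeing the data, 21 of the 32 genes fell, Dld and Suclg2 in addition, and Sdhb had −0.29 and Idh3g −0.22 (7.84% of all genes were then lower).

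Cell type markers moved with age beside these genes, where 6.36% of all genes tested fell and 8.72% rose. Of 10 cardiomyocyte markers 3 fell and 2 rose: Myh6 (−0.75 ± 0.15), Actc1 (−1.23 ± 0.16) and Pln (−0.61 ± 0.15) against Tcap (1.07 ± 0.17) and Myl2 (0.58 ± 0.15), and the other 5 did not pass. Their summed level was 66063 to 73780 CPM in young and 57726 to 66092 CPM in old hearts. Actc1 and Tcap kept their calls whichever heart was left out, while Myh6, Pln and Myl2 lost theirs without young 1, 2 or 3, and Pln and Myl2 also without old 2 or 3. Pln lost its call with library totals too, and Myl2 with the block (edgeR adjusted p = 0.0626) and in 2 of the FPKM settings. Endothelial markers fell in 3 of 7, with sums of 1442 to 1566 and 1071 to 1228 CPM. Cdh5 kept its call in each setting, while Pecam1 and Tie1 lost theirs in 8 settings each, among them library totals and each young heart left out. Macrophage markers rose in 3 of 7, with sums of 175 to 209 and 295 to 365 CPM. These were C1qa (1.22 ± 0.13), C1qb (0.91 ± 0.17) and Fcgr1 (2.08 ± 0.32). The other 4, Adgre1 (−0.11 ± 0.19), Csf1r (0.10 ± 0.12), Mrc1 (0.32 ± 0.25) and Cd68 (0.46 ± 0.19), did not pass. The call of C1qb ended without young 1 (edgeR adjusted p = 0.058), and those of C1qa and Fcgr1 held in each setting. Among fibroblast markers 1 of 7 fell (sums of 793 to 1117 CPM in young and 517 to 1265 CPM in old hearts), among mural markers 1 of 6 (926 to 1174 and 642 to 1053 CPM) and among red blood cell markers 1 of 5 (928 to 981 and 455 to 1215 CPM). These 3 calls, of Col1a1, Kcnj8 and Alas2, ended without young 2 or young 3, those of Kcnj8 and Alas2 also without young 1, those of Col1a1 and Kcnj8 without old 3 and that of Alas2 without old 2. Of the lymphocyte markers 1 of 3 tested rose (10.8 to 12 and 20 to 26.6 CPM), and of the atrial markers 1 of 5 (70.4 to 147 and 84.9 to 352 CPM). The atrial light chain Myl7 had 54 CPM in old 1 against 2.06 and 9.57 CPM in old 2 and old 3 and 0.137, 13.8 and 1.93 CPM in young hearts, and Myl4 and Sln were likewise highest in old 1. Stard10, the gene of the atrial list that rose, had 21.4, 20.6 and 21.2 CPM in young and 43.5, 62.7 and 38.7 CPM in old hearts. It did not follow the rest of that list: it was highest in old 2, where Myl7, Myl4, Sln and Nppa were each lowest among the old hearts. Nppa had 44.9, 67.1 and 112 CPM in young and 145, 13.5 and 57.1 CPM in old hearts. Without old 1, 23 of the 32 cycle and anaplerosis genes fell, and of all genes tested 17.7% were then lower and 20.1% higher. Adipocyte markers were near 0, with Adipoq at 0, 5 and 15 counts in young and 8, 4 and 2 counts in old hearts. In whole-heart RNA, fewer cells of a type and less RNA per cell cannot be told apart, and the part of these markers in the fall was not tested.

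Around the cycle, lists of 53 further genes held 52 that could be tested, of which 12 fell and 1 rose (median −0.32 log2 units). The counts of these lists stand beside 6.36% of all genes tested that fell and 8.72% that rose. Pyruvate enters mitochondria through the carrier Mpc1 and Mpc2, and kinases (Pdk) switch the dehydrogenase complex off while phosphatases (Pdp) switch it on. In this list 4 of 9 genes fell. Mpc2 had 424, 362 and 388 CPM in young and 220, 270 and 230 CPM in old hearts (−0.71 ± 0.14, edgeR adjusted p = 0.0120). Pdk4, the kinase induced by fasting and fatty acids, had 1277, 1771 and 1602 CPM in young and 1210, 717 and 861 CPM in old hearts (−0.74 ± 0.21, edgeR adjusted p = 0.0426). Pdk2 fell by 0.69 ± 0.13 and the phosphatase Pdp1 by 0.59 ± 0.16 on the log2 scale, so genes of both opposing activities fell.

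Among 7 tested carriers of cycle intermediates 3 fell, all of them parts of the malate-aspartate shuttle. Slc25a13, an aspartate-glutamate carrier also called citrin, had 84.3, 83.9 and 74.8 CPM in young and 33, 27.6 and 29.1 CPM in old hearts. The groups were far apart and the old hearts close to each other, including old 1 (−1.44 ± 0.13, edgeR adjusted p = 0.00107). Slc25a12, the other aspartate-glutamate carrier, had 167, 166 and 149 CPM in young and 110, 114 and 111 CPM in old hearts (−0.53 ± 0.12, edgeR adjusted p = 0.0211). Slc25a11, the 2-oxoglutarate-malate carrier, had 395, 362 and 345 CPM in young and 221, 224 and 203 CPM in old hearts (−0.77 ± 0.13, edgeR adjusted p = 0.00635). Of the shuttle's enzymes and carriers Mdh1, Mdh2, Got1 and these carriers thus fell, and Got2 did not pass.

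In the route from propionate to succinyl-CoA 1 of 6 genes fell, Mut, the methylmalonyl-CoA mutase (49.3, 50.9 and 49.1 CPM in young, 38.6, 21.8 and 22.3 CPM in old hearts; −0.85 ± 0.21, edgeR adjusted p = 0.0284). Of 7 genes of glutamine, glutamate and GABA 2 fell. Gpt2, the mitochondrial alanine aminotransferase, had 46, 32.7 and 31.4 CPM in young and 14.3, 19.6 and 17.6 CPM in old hearts (−1.10 ± 0.19, edgeR adjusted p = 0.00715). Glul, glutamine synthetase, had 515, 572 and 527 CPM in young and 378, 335 and 315 CPM in old hearts (−0.65 ± 0.13). Of the other 2-oxoacid dehydrogenase genes 1 of 5 fell, Dbt, the E2 of the branched-chain complex (−0.57 ± 0.12). Of 7 genes for lipoate attachment and succinate dehydrogenase assembly 0 passed by edgeR, DESeq2 or limma-voom. At an unadjusted p under 0.05, 2 of them were lower, beside 2110 of all 14413 genes tested. The smallest p was that of Sdhaf4 (−0.38 ± 0.14, edgeR adjusted p = 0.0952).

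Among 11 regulators of oxidative metabolism 1 fell and 1 rose, where 6.36% of all genes tested fell and 8.72% rose. Ppargc1a, a coactivator of mitochondrial genes, had 73.3, 59.2 and 66.2 CPM in young and 36, 28.9 and 32.3 CPM in old hearts (−1.03 ± 0.14, edgeR adjusted p = 0.00315). Myc had 8.38, 4.27 and 5.86 CPM in young and 12.3, 19.6 and 19.1 CPM in old hearts (1.46 ± 0.27, edgeR adjusted p = 0.0101). Nrf1 (0.29 ± 0.15), Gabpa (−0.10 ± 0.12), Esrra (−0.15 ± 0.17) and Esrrg (−0.60 ± 0.19) did not pass (edgeR adjusted p = 0.201, 0.593, 0.578 and 0.0610). These genes encode factors of the NRF1, ETS and oestrogen-related receptor motifs, and do not cover the other motifs searched above. Slc25a13, Slc25a11, Gpt2 and Ppargc1a kept their calls in the settings tried. With 1 heart left out the calls ended for Mpc2, Glul and Pdk4 without young 1, 2 or 3, for Pdk4 also without old 2 or 3 (and with library totals, on the FPKM scale and with the block), for Pdk2 without young 1 or 2, for Pdp1 and Mut without young 1, 2 or 3 or old 2 or 3, for Slc25a12 and Dbt without young 1, 2 or 3 or old 3, and for Myc without young 3. Over these 53 genes 25 fell with old 1 left out, 10 with old 2 left out and 7 with old 3 left out. For young 1, 2 and 3 the counts were 4, 4 and 5. The share of all genes lower ran from 1.24% without young 1 to 17.7% without old 1.

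**Figure D5:**
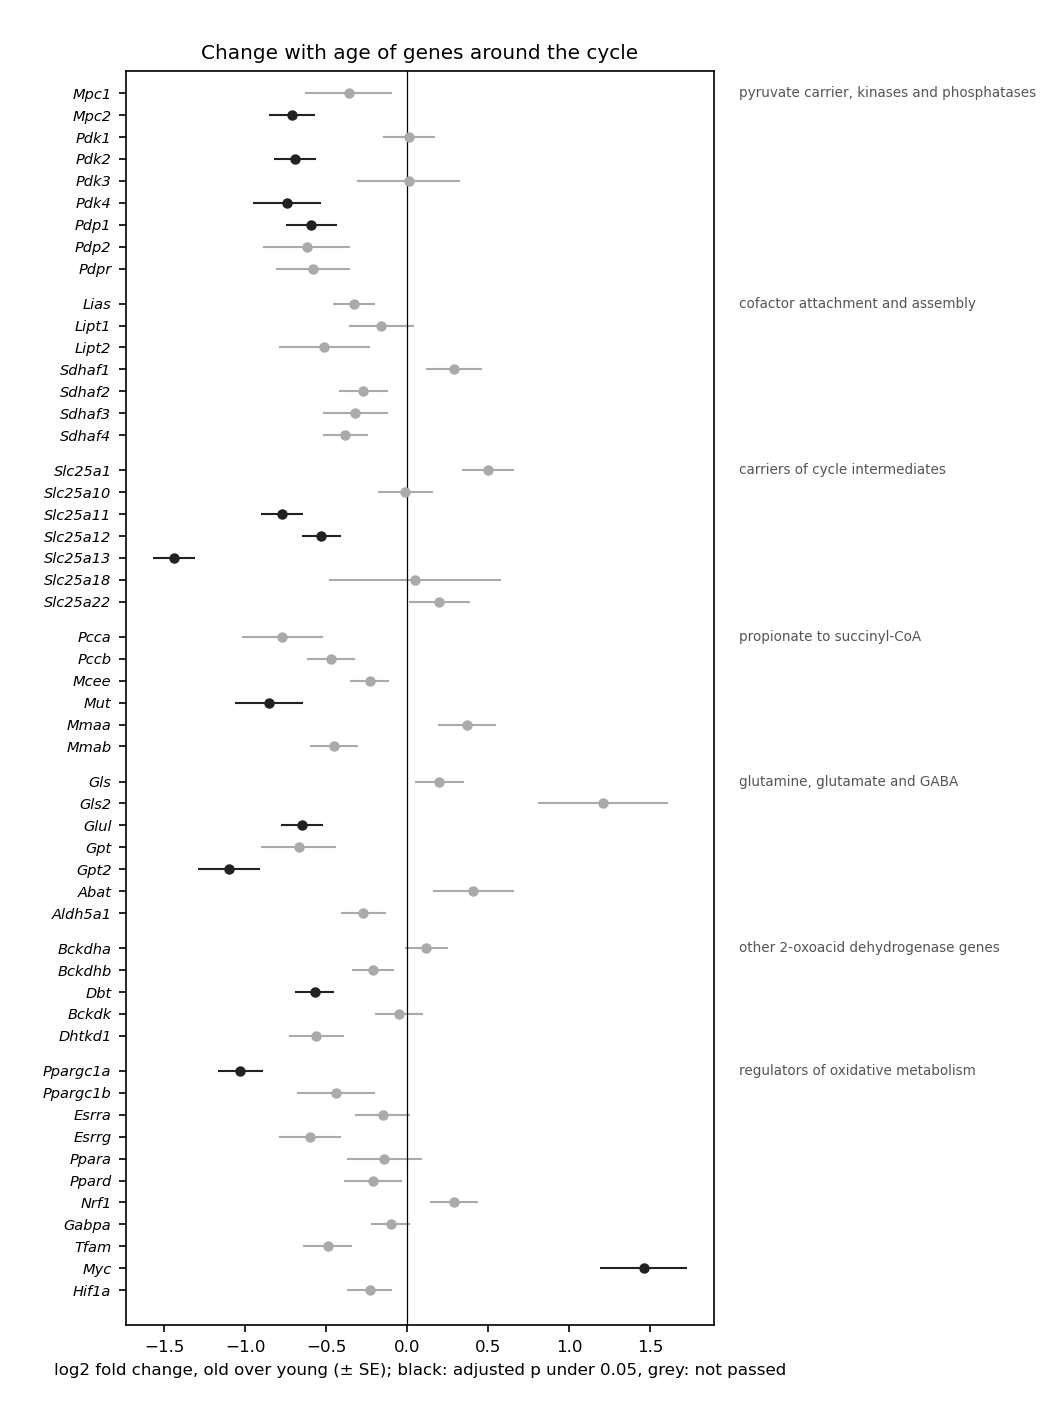
Log2 fold change of old over young (horizontal axis, ± SE) for the 52 tested genes around the cycle, grouped by role. Black points passed an adjusted p of 0.05 and grey points did not. Slc25a13 (−1.44) lies lowest, and Myc (1.46) is the black point above 0.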

How the data were processed

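Total RNA of 6 hearts was sequenced. The submitters' processing notes name HISAT2, featureCounts from Subread and the build GRCm38.p6; tool versions, gene annotation and the handling of strand and of reads with several alignments were not given in the sources used here. Deposited counts are whole reads per gene model. A second table deposited by the authors holds FPKM for 13170 genes, all 32 described here among them; their scale per counted read differed between libraries by −3.88% to 6.3%. The 571 unnamed models (0.295% to 0.368% of counts) were left out.

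In R 4.3.3 with edgeR 4.0.16, genes were filtered with filterByExpr, scaled by TMM and tested by the quasi-likelihood F test (common biological coefficient of variation 0.187). DESeq2 1.42.0 and limma 3.58.1 served as alternatives, with other scalings, filters, FPKM on a log2 scale (pseudocounts 1 and 0.1), a replicate block and each heart left out; removal of length and GC trends (loess span 0.5) was added after seeing the data. SE is the absolute log2 fold change over the square root of F. Scripts were tested on simulated data.

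The 32 genes and the other lists were chosen with earlier results of these data known. Named were all 32 genes, and of each list around the cycle the genes that passed, otherwise that with the smallest p. Genes named beside that rule (some markers, and factors of some of the motifs searched) were chosen after their values were seen. Coordinates, transcript lengths and GC come from GENCODE M21 (GRCm38), matched by identifier, and promoter windows from RefSeq.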

Additional observations from a re-analysis of the deposited data

How the results depend on the processing

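Of the 672 pairs of a gene and an alternative setting over the 32 genes, 571 kept their direction and side of the threshold, 74 lost the call, 19 gained it and 8 changed direction. None of the changes of direction was in a gene that had passed. The log2 fold change of Pcx was 0.02 without young 1 and ran from −0.30 to 0.02 over the 6 fits with 1 heart left out; the ranges that follow cover the same 6 fits. The log2 fold change of Me1 was 0.11 without old 3 (range −0.28 to 0.11). The log2 fold change of Me2 was −0.15 with quality weights, −0.06 without young 1 and −0.19 without old 1 (range −0.19 to 0.20). The log2 fold change of Acly was −0.02 with upper-quartile factors, −0.07 without young 3 and −0.01 without old 2 (range −0.07 to 0.07). The log2 ratio of Pdha1 over Pdhb was 0.02 without old 3 (range −0.35 to 0.02). The cause was not tested.

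With 1 heart left out, between 3 and 23 of the 32 genes were lower, between 3 and 18 of the 20 complex and cycle genes were, and 0 or 1 was higher. In the same settings 4 to 25 of the genes around the cycle were lower and 0 to 5 higher, and 539 to 5570 genes changed in all. Limma-voom with quality weights gave 4554 changed genes, with 14.1% of all genes lower and 17.5% higher. In that setting 1 of the 32 was higher (Pck2), and 23 genes were lower and 4 higher around the cycle. FPKM with pseudocount 1, with pseudocount 0.1 and with a filter on low values each gave 2 higher genes around the cycle. In these settings 6.59%, 6.76% and 6.83% of all genes were higher. Without a filter on low counts 18 of the genes around the cycle were lower (4.93% of all genes), as with the length and GC trend removed (7.84% of all genes).

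The replicate numbers are shared by the ages, but nothing says that they pair animals, and the deviations of same-numbered hearts correlated at −0.087, −0.07 and 0.033. With the replicate block 16 of the 32 genes were lower, Dlst, Suclg1 and Mdh2 losing the call. In that setting 1774 genes changed in all, and 5.11% of all genes were lower. With the trends removed as well 21 of the 32 were lower, beside 6.04% of all genes. That the 3 hearts per age come from separate animals is stated for the series; 3 per age limit the precision of each value.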
